A study of Mus musculus with 170 samples.

Results

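The lungs described here are those of 6 female CD-1 mice 4 h after smoke condensate from flaming pine needles and of 6 female CD-1 mice 4 h after saline, 12 of the 170 libraries of the series. They were chosen by their labels on tissue, treatment and time. Each exposed mouse received particulate matter of the condensate at 2 mg/mL in 50 µL of saline by aspiration from the back of the throat, and the 12 libraries were all on plate 1. The series also holds lungs at 4 h and 24 h after flaming or smoldering smoke of the other fuels (red oak, peat, pine and eucalyptus), after pine needles smolder and after LPS, a bacterial endotoxin, and hearts at 24 h. CD-1 is an outbred stock, each lung library is by its title a separate animal, and the age of the mice is not given in the sources used here. By their titles the hearts came from mice whose lungs at 24 h are also in the series. RNA of whole lung was read with gene probes, so fewer cells of a type and less RNA per cell cannot be told apart.

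Smoke particles carry metals, quinones and polycyclic aromatic hydrocarbons that reach the airway lining and the macrophages of the air spaces. Lung cells answer such loads through several sensors. The transcription factor Nrf2 raises genes of the thioredoxin and glutathione systems when electrophiles or oxidants modify its partner Keap1. The aryl hydrocarbon receptor binds flat aromatic compounds and raises the Cyp1 enzymes, and the metal sensor MTF-1 raises metallothioneins when free zinc or cadmium climbs.

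Total counts per library ranged from 5.15 M to 6.09 M in pine needles flame lungs and from 5.60 M to 6.24 M in saline lungs, with 13436 to 15628 and 14108 to 15251 detected genes. The lung label held: the summed level of 11 alveolar type 2 markers, among them the surfactant genes, was 7907 to 10993 CPM (counts per M counts of the library, scaled with TMM factors) in pine needles flame lungs and 5860 to 8843 CPM in saline lungs, and 10 exocrine pancreas markers together stayed between 3.08 and 4.77 CPM in pine needles flame lungs and between 1.53 and 8.40 CPM in saline lungs.

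Before the results, 3 libraries need naming because they stood apart from their groups. On the first principal component of the 70 lungs of 4 h, which held 43.1% of the variance of 10542 genes, pine needles flame replicates 2 to 6 lay at 114.4, 32.1, 33.6, 67.2 and 31.4, and replicate 1 at -23.0. Saline replicate 1 lay at 84.6, and saline replicates 2 to 6 between -48.4 and 2.07. So 1 pine needles flame lung lay with the saline lungs on this axis and 1 saline lung lay with the pine needles flame lungs. Of the other groups, 1 eucalyptus flame lung lay at 100.3 and 1 pine flame lung at 67.6. Replicate 2 of pine needles flame and replicate 1 of saline had the fewest detected genes of their groups. Over the 70 lungs, the position on the axis had a correlation of -0.712 with the number of detected genes. What sets the axis was not tested. The main results that rest on these libraries are also given in the fit of the 4 h lungs without a pair of them. The first pair was pine needles flame replicate 2 and saline replicate 1, and the second was replicate 1 of both groups. Neither pair was planned, and the second was chosen by its place on the axis, along which the groups differ. Both take out saline replicate 1, which lay with the pine needles flame lungs on the axis. Values without a pair are therefore no separate support for a difference.

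**Figure D1:**
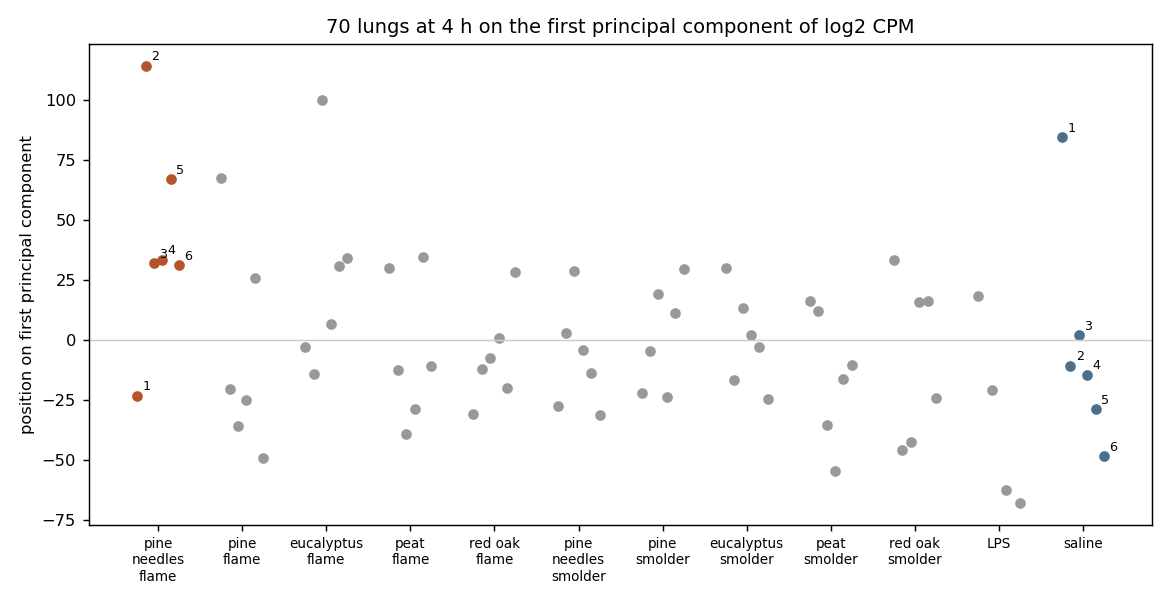
Position of each of the 70 lungs of 4 h (points) on the first principal component of log2(CPM + 1), by group on the horizontal axis; pine needles flame and saline lungs carry their replicate numbers. Pine needles flame replicate 1 at -23.0 sits among the saline lungs, and saline replicate 1 at 84.6 sits among the pine needles flame lungs.

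After pine needles flame smoke 4 genes rose in the main test, edgeR's quasi-likelihood test fitted once to the 140 lungs of the series with terms for group and plate, and with Benjamini-Hochberg adjustment over 14458 genes. They were Mt2, a metallothionein that binds zinc and copper, Zranb2, a zinc finger protein that binds RNA at splice sites, Txnrd1, the cytosolic thioredoxin reductase and an Nrf2 target, and Fntb, the beta subunit of protein farnesyltransferase. A gene is called here when its adjusted p is under 0.05. The called share was 0.0277% of the genes tested for higher and 0% for lower, and 1742 genes had an unadjusted p under that value. DESeq2 on the same design called 11 higher and 2 lower genes.

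The fit of the 70 lungs of 4 h alone, whose spread between animals was smaller (a biological coefficient of variation of 0.361, against 0.463 over all lungs), called 324 higher genes and 548 lower genes of 14099, shares of 2.30% and 3.89%. In the 4 h fit 3920 genes had an unadjusted p under 0.05, and DESeq2 on the 4 h lungs called 1498. The log2 changes of the named genes were nearly the same in both fits. The edgeR count of the 4 h fit depended on single libraries, between 33 genes without pine needles flame replicate 2 and 3725 genes without saline replicate 1. In the 58 other lungs of 4 h, 298 of the 324 genes that rose had a positive relation with the first axis and 536 of the 548 that fell a negative one. This agreement in sign was not counted over all genes. Genes that were not called also followed the axis. In those lungs the median absolute correlation with it was 0.605 over the called genes and 0.452 over all genes tested. With the axis as a covariate 178 genes were called. The axis was drawn from all 70 lungs, the 12 compared among them, and the groups differ along it. The counts by sign above therefore follow in part from how the axis was made. The covariate also holds part of the difference tested, so a call kept or lost with it decides nothing on its own. The part of the axis in the calls was not tested. Results below name their fit, and for the genes described most closely they say in how many of the 12 fits that left out 1 library the 4 h call was kept.

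Metallothionein came first. Mt2 was 99.4 CPM in the lowest, 151 CPM in the median and 355 CPM in the highest pine needles flame lung, and 23.8, 33.1 and 93.3 CPM in the lowest, median and highest saline lung. Every pine needles flame lung lay above every saline lung, a separation that 0.616% of the 14458 genes showed upward and 0.387% downward. The log2 change was 2.12 (SE 0.40, edgeR adjusted p = 0.00341 over all lungs), and a two-sided exact permutation test of the 924 splits gave p = 0.00216, the smallest it can give. In the all-lung fits the call was lost only without pine needles flame replicate 5, the highest lung, where the log2 change was 1.84 and the adjusted p = 0.0890. The 4 h fit called Mt2 in all 12 leave-outs.

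Mt1, its neighbour on chromosome 8 and the other metallothionein of most mouse tissues, did not pass. It averaged 7.72 ± 3.12 CPM in pine needles flame lungs and 6.14 ± 3.21 CPM in saline lungs (SD, n = 6 each), with a log2 change of 0.33 (SE 0.38, edgeR adjusted p = 0.678). Nearly all Mt2 counts came from 1 of its 2 probes (186.8 CPM in pine needles flame lungs, 42.97 CPM in saline lungs), while both Mt1 probes read under 5 CPM in either group, so the 2 genes were read at very different depths. Slc30a1, the zinc exporter that MTF-1 also controls, was 226 to 1147 CPM in pine needles flame lungs and 164 to 551 CPM in saline lungs, and its log2 change of 0.89 did not pass (edgeR adjusted p = 0.465). Of 14 tested metallothionein and zinc handling genes, the 4 h fit called Mt2 higher and the zinc transporters Slc30a9 (log2 change -1.18) and Slc30a5 (-0.56) lower (4 and 2 of 12 leave-outs), with a list median of -0.05 against -0.01 over all genes tested. Over all genes the 4 h fit called 2.30% higher and 3.89% lower. With the first axis as a covariate, only Mt2 of this list was called (adjusted p = 0.0017).

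The RefSeq promoters of both metallothionein genes are shown because the neighbours share a regulatory letter pattern but differed in call. They span 250 bases before to 50 after the start on GRCm38.p6, Mt2 at chr8:94172368-94172667 and Mt1 at chr8:94178839-94179138, both on the plus strand, and the capitals mark the metal response element core, TGCACNC or TGCGCNC on either strand.
Mt2: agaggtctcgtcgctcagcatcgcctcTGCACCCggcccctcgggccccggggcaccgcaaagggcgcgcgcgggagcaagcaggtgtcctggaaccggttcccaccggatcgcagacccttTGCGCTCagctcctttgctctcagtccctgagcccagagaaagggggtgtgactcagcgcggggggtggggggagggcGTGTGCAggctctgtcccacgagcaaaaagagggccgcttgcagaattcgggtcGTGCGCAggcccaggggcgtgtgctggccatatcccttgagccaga
Mt1: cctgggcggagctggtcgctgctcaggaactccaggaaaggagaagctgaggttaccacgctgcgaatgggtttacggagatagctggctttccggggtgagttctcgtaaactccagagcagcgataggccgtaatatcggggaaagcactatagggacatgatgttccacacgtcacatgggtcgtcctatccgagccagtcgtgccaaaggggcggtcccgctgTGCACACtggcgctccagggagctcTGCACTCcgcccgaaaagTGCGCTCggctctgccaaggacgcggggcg

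Mt2 held 4 matches and Mt1 held 3. Of 32851 RefSeq promoters of this length, 25.7% held at least 1 match and 1.97% held 3 or more. The Mt2 promoter also held 1 match to the antioxidant response element core TGACNNNGC, and this match overlapped its 1 match to the AP-1 site TGANTCA. These are matches of letters, and no binding was measured.

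The thioredoxin and glutathione systems came next. Txnrd1, which reduces thioredoxin with NADPH, was 212, 275 and 343 CPM in the lowest, median and highest pine needles flame lung, and 92.1, 109.4 and 233 CPM in the saline lungs. The groups overlapped only through saline replicate 1, at 233 CPM; the other 5 saline lungs were at or under 145 CPM. Its log2 change was 1.03 (SE 0.22, edgeR adjusted p = 0.0245 over all lungs; exact permutation p = 0.00649). Without saline replicate 1 the log2 change was 1.26 and the adjusted p 0.00074, and the call was lost in 5 of the 12 all-lung leave-outs (pine needles flame replicate 5 and saline replicates 2, 3, 5 and 6; highest adjusted p = 0.169). The 4 h fit called it in all 12. Of its 3 probes, those numbered 72590 and 31483 changed by 1.20 and 1.801 on the log2 scale and the one numbered 70547 by 0.34, and only the first was called on its own (adjusted p = 0.0419).

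RefSeq lists 3 starts for Txnrd1 on the plus strand of chromosome 10. The promoter of the middle one, chr10:82858956-82859255, is shown because it alone of the 3 holds the antioxidant response element core (capitals), which 12.4% of all promoters hold.
Txnrd1: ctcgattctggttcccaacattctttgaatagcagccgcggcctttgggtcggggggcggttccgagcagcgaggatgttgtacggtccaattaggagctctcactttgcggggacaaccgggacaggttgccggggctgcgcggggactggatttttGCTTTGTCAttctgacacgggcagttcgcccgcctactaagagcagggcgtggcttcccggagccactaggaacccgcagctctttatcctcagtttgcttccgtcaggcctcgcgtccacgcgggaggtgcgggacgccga

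Of 30 genes of the thioredoxin, glutathione and wider Nrf2 system, the 4 h fit called 7 higher and 0 lower, against shares of 2.30% and 3.89% over all genes, and their median log2 change was 0.31 against -0.01 over all genes. The all-lung fit called only Txnrd1 among them. The 7 were Txnrd1, Hmox1, Txn1, Gclm, Srxn1, Nqo1 and Osgin1. All 7 stayed called with the first axis as a covariate, a fit in which 0.567% of genes were called higher and 0.695% lower. The axis was drawn from these same lungs, so this is no separate support.

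Hmox1, the enzyme that opens heme, was 8.71, 15.8 and 50.1 CPM in the lowest, median and highest pine needles flame lung and 2.87, 6.44 and 8.73 CPM in the saline lungs. The groups met at the lowest pine needles flame lung and the highest saline lung. The 4 h fit gave a log2 change of 1.76 (SE 0.36, edgeR adjusted p = 0.00977), called in 12 of 12 leave-outs. Gclm, the regulatory subunit of the enzyme that makes the first step of glutathione, was 108.9, 138.8 and 159 CPM in pine needles flame lungs and 65.6, 83.2 and 111.1 CPM in saline lungs, with 1 saline lung above the lowest pine needles flame lung. Its log2 change was 0.71 (SE 0.16), with an edgeR adjusted p of 0.0142 in the 4 h fit (9 of 12 leave-outs) and 0.0587 over all lungs. Txn1, thioredoxin itself, was 195, 278 and 395 CPM in pine needles flame lungs and 126.9, 142 and 261 CPM in saline lungs, where the highest value was again saline replicate 1, and was called in 11 of 12 leave-outs of the 4 h fit.

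Nqo1, a quinone reductase, was 14.4 to 46.6 CPM in pine needles flame lungs and 5.16 to 13.2 CPM in saline lungs, with no overlap (log2 change 1.18, SE 0.32, edgeR adjusted p = 0.0266 in the 4 h fit, 8 of 12 leave-outs). Srxn1, which repairs overoxidised peroxiredoxins, averaged 9.005 ± 3.36 CPM in pine needles flame lungs and 4.25 ± 1.17 CPM in saline lungs (SD, n = 6 each), and Osgin1, an oxidative stress growth inhibitor, averaged 83.9 ± 46.3 and 33.5 ± 21.8 CPM. Both overlapped between groups and were called in 7 and 5 of 12 leave-outs of the 4 h fit. Gclc, the catalytic partner of Gclm, did not pass (83.04 CPM in pine needles flame lungs, 60.7 CPM in saline lungs, log2 change 0.45, edgeR adjusted p = 0.155 in the 4 h fit). Glutathione transferases and the pentose phosphate enzymes of the list were not called either.

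**Figure D2:**
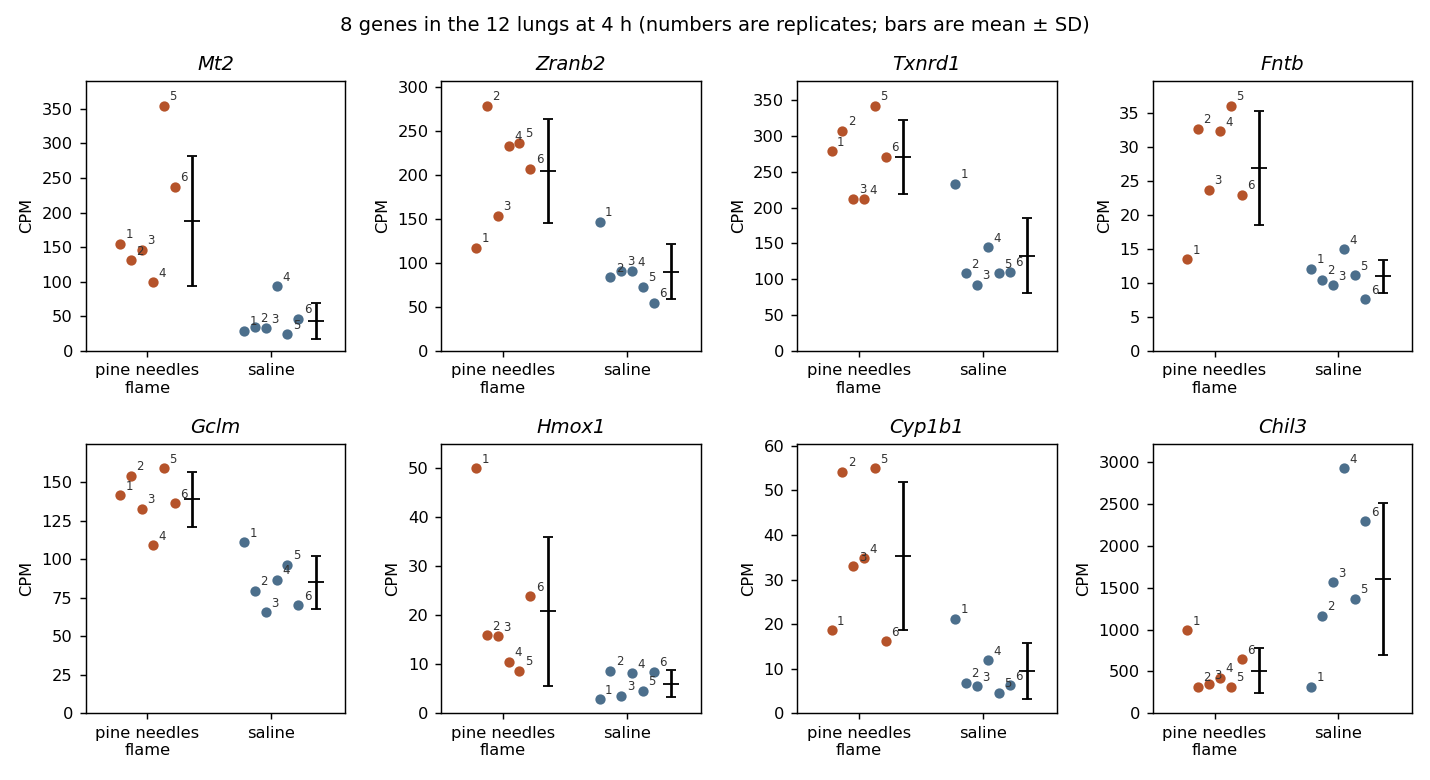
CPM of 8 genes in each of the 12 lungs of 4 h (vertical axes from 0), pine needles flame left and saline right, with replicate numbers beside the points and mean ± SD bars. Mt2 separates the groups without overlap, Txnrd1 overlaps only through saline replicate 1 at 233 CPM, and Chil3 in saline replicate 1, at 319 CPM, is as low as in the lowest pine needles flame lungs.

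The aryl hydrocarbon receptor genes split. Cyp1b1, a monooxygenase that oxidises polycyclic aromatic hydrocarbons, was 16.1, 33.9 and 54.98 CPM in the lowest, median and highest pine needles flame lung and 4.63, 6.62 and 21.2 CPM in the saline lungs. Saline replicate 1 was again the one that reached into the other group. The log2 change was 1.90 (SE 0.43, edgeR adjusted p = 0.0132 in the 4 h fit, 8 of 12 leave-outs), and 0.0852 was the adjusted p over all lungs. Its log2 change was 2.16 without pine needles flame replicate 2 and saline replicate 1 (adjusted p = 0.00573) and 2.42 without replicate 1 of both groups. Cyp1a1, the enzyme most often read as a marker of this receptor, did not pass: it was 6.02, 15.7 and 38.9 CPM in pine needles flame lungs and 4.59, 8.16 and 32.5 CPM in saline lungs (log2 change 0.57, SE 0.48, edgeR adjusted p = 0.438 in the 4 h fit). In the same 4 h set, Cyp1a1 averaged 546 ± 102.1 CPM after eucalyptus flame and 79.5 ± 31.2 CPM after pine flame (SD, n = 6 each). Of 10 tested genes of the list, 3 rose (Cyp1b1, Nqo1 and Lgals3, a galectin called in 3 of 12 leave-outs) and 0 fell in the 4 h fit, against 2.30% and 3.89% of all genes.

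Zranb2 was 117.1, 220 and 278 CPM in the lowest, median and highest pine needles flame lung and 54.6, 87.05 and 147 CPM in the saline lungs. The 2 libraries that overlapped were pine needles flame replicate 1 at 117.1 CPM and saline replicate 1 at 147 CPM, the pair that stood apart on the first axis. Its log2 change was 1.18 (SE 0.22, edgeR adjusted p = 0.00341 over all lungs; exact permutation p = 0.00433), and it was called in all 12 leave-outs of both fits, with the highest adjusted p of 0.0498 over all lungs without saline replicate 6. Nearly all its counts came from 1 of 2 probes. With the first axis as a covariate its adjusted p was 8.26e-05. Its log2 change was 1.30 without pine needles flame replicate 2 and saline replicate 1 (adjusted p = 0.00128) and 1.497 without replicate 1 of both groups.

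Of 25 tested splicing factor genes grouped with Zranb2, the 4 h fit called Zranb2, Srsf2, an SR protein, and U2af1, the subunit that reads the 3' splice site, higher and Luc7l2, a U1 snRNP partner, lower (log2 changes 1.19, 0.79, 0.61 and -0.32). The list median was 0.05, and over all genes that fit called 2.30% higher and 3.89% lower. The list was drawn up around Zranb2, so the call of Zranb2 itself is no support for it. Srsf2, U2af1 and Luc7l2 were called in 5, 4 and 2 of 12 leave-outs of that fit, and Srsf2 and U2af1 were not called with the first axis as a covariate.

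Fntb was 13.5, 28.02 and 36.1 CPM in the lowest, median and highest pine needles flame lung and 7.62, 10.8 and 14.9 CPM in the saline lungs. Pine needles flame replicate 1, the lowest, overlapped with 1 saline lung. The log2 change was 1.29 (SE 0.28, edgeR adjusted p = 0.0336 over all lungs; exact permutation p = 0.00433), the call was lost in 7 of 12 all-lung leave-outs (highest adjusted p = 0.224, without saline replicate 6), and the 4 h fit called it in all 12. Among 12 protein prenylation genes the 4 h fit called Fntb higher and Chm, a Rab escort protein, lower (log2 change -1.46, 2 of 12 leave-outs). Over all genes that fit called 2.30% higher and 3.89% lower, and the list was written with earlier results of these data known.

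Beyond these lists, the genes with the smallest p in the 4 h fit gave a mixed set. Besides Mt2, Zranb2, Fntb and Hmox1, the higher genes were Rhof, Atp5k, a small subunit of ATP synthase, Edc3, an enhancer of mRNA decapping, Psmc6, a proteasome ATPase, Rab7, a late endosome GTPase, Ehd2, a caveolar ATPase, Ptpn1, a tyrosine phosphatase, and Ttc30b, a transport protein of cilia. Rhof was 10.7, 14.6 and 18.4 CPM in the lowest, median and highest pine needles flame lung and 4.53, 5.05 and 7.33 CPM in the saline lungs, with no overlap (log2 change 1.379, SE 0.24, edgeR adjusted p = 0.00113 in the 4 h fit, 12 of 12 leave-outs, and 0.0637 over all lungs). Ehd2 and Psmc6 also did not overlap, at 102.4 to 162 and 66.96 to 85.6 CPM in pine needles flame lungs and 78.5 to 92.9 and 44.2 to 63.3 CPM in saline lungs. Ttc30b was highest in pine needles flame replicate 2, at 175 CPM, with 23.9 to 71.2 CPM in the other 5 pine needles flame lungs and 9.17 to 49.5 CPM in saline lungs. The overlap came from saline replicate 1, at 49.5 CPM, and the other 5 saline lungs lay below every pine needles flame lung. Without both of these libraries the log2 change was 2.24 (adjusted p = 0.0034).

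The lower genes with the smallest p were Dcp1b, a decapping cofactor, Mtus1, a microtubule-bound tumour suppressor, Golga4, a golgin, Pls3, an actin bundler, Sclt1, a centriole appendage protein, Slf1, a DNA repair adaptor, Map2k4, a stress kinase upstream of JNK, Pde3b, a phosphodiesterase, H2afy, a histone variant, Cdon, a Hedgehog co-receptor, the zinc finger gene Zfp426 and Fam151b. Golga4 was 281 to 328 CPM in pine needles flame lungs and 376 to 473 CPM in saline lungs, with no overlap, and changed by -0.41 on the log2 scale (SE 0.09, edgeR adjusted p = 0.0104 in the 4 h fit). Dcp1b was 0 to 3.92 CPM in pine needles flame lungs and 5.54 to 10.5 CPM in saline lungs, also with no overlap (log2 change -1.91, SE 0.33, edgeR adjusted p = 0.00113). Pls3 averaged 349 ± 74.1 CPM in pine needles flame lungs and 607 ± 145 CPM in saline lungs (SD, n = 6 each). Golga4, Dcp1b and Pls3 were called in 12 of 12 leave-outs of the 4 h fit, and none of the lower genes was called over all lungs.

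Several mitochondrially encoded genes were called lower in the 4 h fit, which called 2.30% of all genes higher and 3.89% lower. Of 8 tested, the 4 h fit called 0 higher and 5 lower (mt-Nd1, mt-Nd2, mt-Nd3, mt-Cytb and mt-Atp8, subunits of complexes I, III and V), with a list median of -1.48 against -0.01 over all genes. mt-Nd1 was 30.4, 43.9 and 145 CPM in the lowest, median and highest pine needles flame lung and 137.6, 192 and 273 CPM in the saline lungs. The 145 CPM were those of pine needles flame replicate 1, and the other 5 pine needles flame lungs were at or under 46.2 CPM. The log2 change was -1.71 without pine needles flame replicate 2 and saline replicate 1 (adjusted p = 0.0226) and -2.34 without replicate 1 of both groups. mt-Nd2 did not overlap, at 15.3 to 33.7 CPM in pine needles flame lungs and 37.3 to 62.5 CPM in saline lungs (log2 change -1.14, SE 0.30, edgeR adjusted p = 0.0254). mt-Nd6, which is copied from the other strand, went the other way without passing (1378 CPM in pine needles flame lungs, 608 CPM in saline lungs, log2 change 1.19, adjusted p = 0.11), and with it the summed level of the list was 1069 to 4226 CPM in pine needles flame lungs and 874 to 3151 CPM in saline lungs. None of the 8 was called over all lungs or with the first axis as a covariate. Each of mt-Nd1, mt-Nd2, mt-Nd3 and mt-Cytb was called in 8 of 12 leave-outs. Nuclear respiratory chain genes had a median of 0.13, with Cox4i1 and Cyc1 higher and Cox6c lower among 28.

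Of 21 immediate early genes, 3 rose and 0 fell in the 4 h fit, against 2.30% and 3.89% of all genes, with a median of 0.45. Fosl1, an AP-1 subunit, was 1.39 to 12.03 CPM in pine needles flame lungs and 0 to 3.18 CPM in saline lungs, with some overlap (log2 change 2.62, SE 0.65, edgeR adjusted p = 0.0211, 9 of 12 leave-outs). Ier5 and the orphan receptor Nr4a1 rose by 0.73 and 1.36 on the log2 scale and were called in 2 of 12 leave-outs each. Egr1 averaged 6.5 CPM in pine needles flame lungs and 4.3 CPM in saline lungs and did not pass. Of 16 heat shock genes the 4 h fit called 0, at a median of 0.09. Among them 3 had an unadjusted p under 0.05 and DESeq2 called 1, against 3920 and 1498 of all 14099 genes. Hspa1a, an inducible Hsp70, had a log2 change of 1.58 with an edgeR adjusted p of 0.0753.

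Chemokines, cytokines and neutrophil markers showed no call. Of 19 chemokine and cytokine genes tested in the 4 h fit, edgeR called 0 at a median log2 change of 0.21, and of 15 neutrophil markers it called 0 at -0.22. In each list 2 had an unadjusted p under 0.05, and DESeq2 called 0, against 3920 and 1498 of all 14099 genes. Cxcl1, a neutrophil chemokine, averaged 9.75 ± 7.49 CPM in pine needles flame lungs and 8.06 ± 5.94 CPM in saline lungs (SD, n = 6 each), and 342 ± 104.8 CPM in 4 LPS lungs at 4 h. Il6 averaged 2.00 ± 1.59 CPM in pine needles flame lungs and 2.66 ± 2.46 CPM in saline lungs, and 76.6 CPM in LPS lungs. Saa3, an acute phase gene of the airway, averaged 10.3 ± 14.8 and 8.02 ± 5.05 CPM, and S100a8, a neutrophil alarmin, 2.13 ± 2.75 and 6.57 ± 6.23 CPM, in pine needles flame and saline lungs. Cxcl2 had a log2 change of 0.91 (SE 0.69, edgeR adjusted p = 0.385). The direction of Cxcl1, Il6, Saa3 and S100a8 turned in at least 1 other fit.

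**Figure D3:**
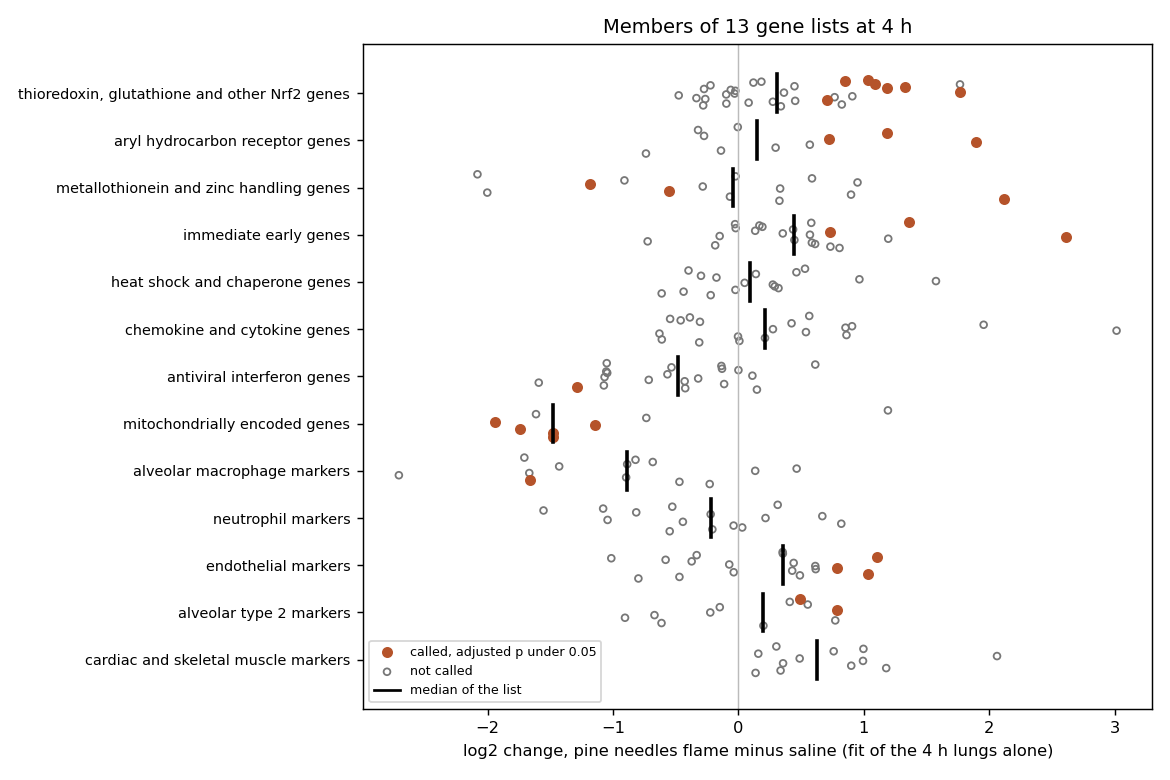
Log2 change of each tested member of 13 gene lists (rows), pine needles flame minus saline, in the fit of the 4 h lungs alone; filled points passed an adjusted p of 0.05, open points did not, and bars are list medians. The 7 called Nrf2 system genes lie above 0, the 5 called mitochondrially encoded genes lie below 0, and no chemokine or neutrophil gene is filled.

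Markers of resident cells were called in both directions. Of 13 alveolar macrophage markers the 4 h fit called 1, Chil3, a chitinase-like lectin, lower, against 3.89% of all genes, and the list median was -0.89. Chil3 was 317, 388 and 994 CPM in the lowest, median and highest pine needles flame lung and 319, 1466 and 2924 CPM in the saline lungs, where the 319 CPM were those of saline replicate 1. Its log2 change was -1.66 (SE 0.50, edgeR adjusted p = 0.0371), it was called in 2 of 12 leave-outs, and with the first axis as a covariate the adjusted p was 0.358. The log2 change was -1.74 without pine needles flame replicate 2 and saline replicate 1 (adjusted p = 0.0291) and -2.18 without replicate 1 of both groups. The summed level of the list was 1756 to 3310 CPM in pine needles flame lungs and 1551 to 4919 CPM in saline lungs.

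Of 18 endothelial markers, 3 rose and 0 fell in the 4 h fit, against 2.30% and 3.89% of all genes (Eng, a TGF-beta co-receptor, Cldn5, a tight junction claudin, and Ramp2, the adrenomedullin receptor partner), at a median of 0.35. Eng did not overlap, at 334 to 494 CPM in pine needles flame lungs and 210 to 285 CPM in saline lungs. Eng and Cldn5 were each called in 8 of 12 leave-outs and Ramp2 in 6; none was called with the first axis as a covariate. Ramp2 was highest in pine needles flame replicate 2, at 4638 CPM, with 705 to 1774 CPM in the other 5 pine needles flame lungs and 657 to 1692 CPM in saline lungs, where the 1692 CPM were those of saline replicate 1. Without both of these libraries its log2 change was 0.945 (adjusted p = 0.0313). Of 11 type 2 cell markers 2 rose and 0 fell, against the same shares of all genes, at a median of 0.20: the aspartic protease Napsa (8 of 12 leave-outs) and the phosphate carrier Slc34a2 (5 of 12). Gabrp, of the club and secretory airway list, was 34.6 to 73.99 CPM in pine needles flame lungs and 115.03 to 169 CPM in saline lungs and was the 1 called member of 13 (8 of 12 leave-outs). The cardiac and skeletal muscle markers had 0 of 12 called by edgeR or DESeq2, with 0 under an unadjusted p of 0.05, at a median of 0.62, with summed levels of 837 to 1995 CPM in pine needles flame lungs and 294 to 1944 CPM in saline lungs. The part of these cell markers in the other results was not tested.

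The remaining lists had at most 4 calls each in the 4 h fit, which called 2.30% of all genes higher and 3.89% lower. Of the genes named next, Ifih1 was called in 9 of 12 leave-outs and Asns in 7, C3, Clock, Bhlhe41, Dnajb9 and Psma1 in 2 each, Nfkbib, Psmb6 and Psma4 in 3 each, and Gadd45g in 5. In the same fit 1 higher and 1 lower member were called among 16 unfolded protein and ATF4 genes (Asns and Dnajb9; median 0.04). Among 11 monocyte markers Nr4a1 was called higher and Chil3 lower (0.13), and among 25 proteasome genes 2 were higher and 2 lower (-0.41), with Psmb6 and Psmc6 up and Psma1 and Psma4 down. A single member was called lower in the acute phase list (C3, of 14; median -0.18) and in the antiviral interferon list (Ifih1, of 20; -0.48), and Clock and Bhlhe41 were lower among 18 circadian genes (-0.24). A single gene was called higher among 15 glucocorticoid response genes (Mt2; 0.33), 16 NF-kB genes (Nfkbib; 0.22), 17 p53 and growth arrest genes (Gadd45g; 0.04) and 16 heme and iron genes (Hmox1; -0.07). No member was called, by edgeR in the 4 h fit, among cholesterol synthesis (0.18), ribosomal protein (-0.17), T and NK cell (0.00), B cell (-0.40), alveolar type 1 (-0.35), ciliated (-0.04), fibroblast (0.10) and smooth muscle (0.46) genes, where each value is the list median, nor among the 4 tested pancreas genes (0.39). Of these lists ribosomal proteins had the most genes under an unadjusted p of 0.05, 8 of 29, and DESeq2 called 3 of them. In the others DESeq2 called 0 or 1. Of all 14099 genes of the 4 h fit, 3920 were under that unadjusted p and DESeq2 called 1498. The ribosomal protein shares were near these shares.

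Set against the other flaming smokes of 4 h, the question was which genes differed after pine needles. Against the mean of the red oak, peat, pine and eucalyptus flame groups (24 lungs), the all-lung fit called 5 genes higher (0.0346% of genes) and 0 lower (0%), and 1338 genes had an unadjusted p under 0.05. The 4 h fit called 0.312% higher and 0.0284% lower. The 5 included Zranb2 (log2 difference 0.82, SE 0.16, edgeR adjusted p = 0.0103), Zmat2, a splicing zinc finger protein (0.80, SE 0.15, adjusted p = 0.00596), Ednra, an endothelin receptor (0.99, SE 0.21, adjusted p = 0.0349), and Ktn1, a kinesin receptor of the endoplasmic reticulum (0.63, SE 0.14, adjusted p = 0.0473). The fifth has only a model name. These comparisons use the same 6 pine needles flame lungs as the comparison with saline.

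Zmat2 was 69.1, 101.4 and 107.3 CPM in the lowest, median and highest pine needles flame lung, against a saline range of 45.4 to 67.8 CPM with no overlap. Ednra and Ktn1 also did not overlap with saline, at 58.3 to 114.01 and 168 to 236 CPM in pine needles flame lungs and 25.5 to 56.2 and 129.03 to 153 CPM in saline lungs. All 3 had their highest mean of the 12 groups of 4 h after pine needles flame, as did Zranb2. These genes were picked because the same lungs exceeded the mean of the other flames, so this rank follows in part from the choice. The choice also favours the lack of overlap with saline of Zmat2, Ednra and Ktn1. Over all 14458 genes, 0.616% had every pine needles flame lung above every saline lung. Zmat2, Ednra and Ktn1 were not called against saline over all lungs. Zranb2 averaged 204 ± 59.2 CPM after pine needles flame, 163 ± 36.7 CPM after pine flame, 148 ± 48.02 CPM after pine smolder, 133.1 ± 25.7 CPM after peat flame and 64.9 ± 13.1 CPM after red oak flame, against 89.8 ± 31.01 CPM after saline (SD, n = 6 each).

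For Mt2 and Txnrd1 no difference from the other flames passed the test. Mt2 had rank 3 of 12, after LPS (1097 ± 453 CPM, n = 4) and peat flame (400 ± 184 CPM, n = 6), and its log2 difference from the 4 other flames was 0.10 (SE 0.30, edgeR adjusted p = 0.873). Txnrd1 had rank 4, after peat flame (344 ± 77.1 CPM), eucalyptus flame (321 ± 154 CPM) and LPS (305 ± 73.3 CPM), with a log2 difference of 0.04 (SE 0.17, adjusted p = 0.903). Saline was the lowest group for both. Against pine flame alone, edgeR called 0 genes (0%) with 872 under an unadjusted p of 0.05, and DESeq2 called 2. Zranb2 differed from pine flame by 0.33 (SE 0.22, adjusted p = 0.579) and Mt2 by 0.87 (SE 0.38, adjusted p = 0.579).

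**Figure D4:**
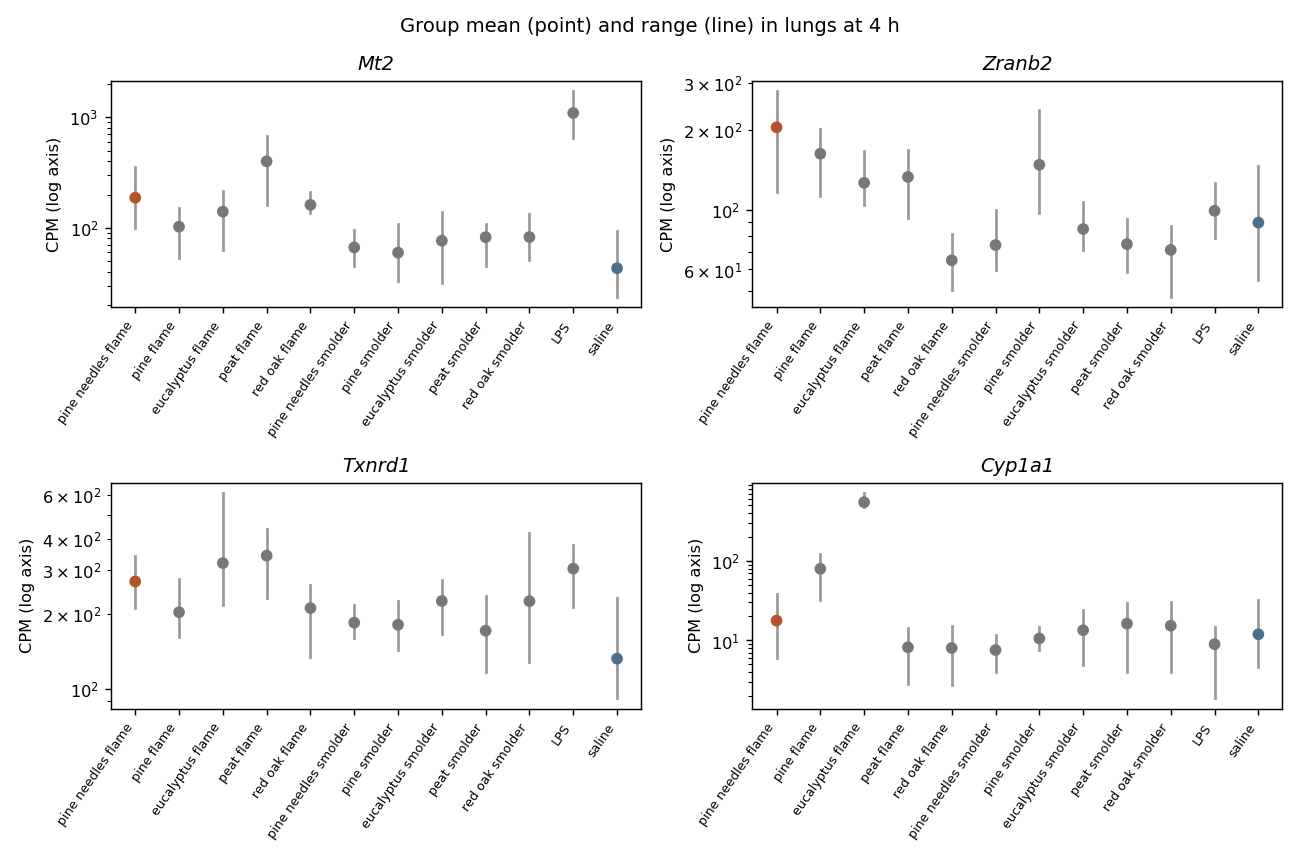
Group mean (points) and range (lines) in CPM on log axes for Mt2, Zranb2, Txnrd1 and Cyp1a1 in the 12 lung groups of 4 h, pine needles flame at the left and saline at the right; a range that reaches 0 would be drawn from 0.5 CPM. Zranb2 is highest after pine needles flame at 204 CPM, whereas Mt2 is higher after peat flame and LPS and Cyp1a1 is far higher after eucalyptus flame at 546 CPM.

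At 24 h after the same smoke the number of calls depended on the setting. The all-lung fit called 0 genes higher (0%) and 1 lower (0.00692%), Adm, the vasodilator peptide adrenomedullin, which was 18.5 to 66.7 CPM in pine needles flame lungs and 91.9 to 177 CPM in saline lungs (log2 change -1.72, SE 0.35, edgeR adjusted p = 0.0363). DESeq2 called 6 higher and 1 lower, and edgeR called 0 without saline replicate 2 of 24 h, the saline lung with the fewest detected genes (980 genes under an unadjusted p of 0.05). Without the 6 lungs of the series with fewer than 13000 detected genes, none of them a pine needles flame or saline lung, edgeR called 1351 genes, 201 higher and 1150 lower, and with DESeq2's size factors it called 0 (2475 under an unadjusted p of 0.05). Mt2 averaged 30.995 ± 27.8 CPM in pine needles flame lungs and 33.9 ± 17.2 CPM in saline lungs at 24 h (SD, n = 6 each), with a log2 change of -0.11 (SE 0.39, adjusted p = 0.867). Txnrd1 averaged 95.9 ± 4.52 CPM in pine needles flame lungs and 123.3 ± 32.6 CPM in saline lungs, and Zranb2 120 ± 11.6 and 102.7 ± 33.2 CPM. Saa3 was 2.98 to 127.3 CPM in pine needles flame lungs of 24 h and 0 to 6.17 CPM in saline lungs of 24 h, where a single pine needles flame lung overlapped with saline; its log2 change of 4.12 (SE 1.08) did not pass (adjusted p = 0.165).

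The change between times was tested as the 24 h effect minus the 4 h effect. Of 14458 genes, 9 were called higher (0.0622%) and 73 lower (0.505%). This count depended on the setting: it was 4582 (1987 higher, 2595 lower) without the 6 lungs of few detected genes, 297 with no plate term and 0 with DESeq2's size factors (4745 under an unadjusted p of 0.05). Lower ones included Gclm (-1.12, SE 0.23), Txnrd1 (-1.39, SE 0.30), Osgin1 (-2.61, SE 0.56) and Cyp1b1 (-2.91, SE 0.63), each with an edgeR adjusted p of 0.0276, and Mt2 (-2.23, SE 0.55, adjusted p = 0.0461). Zranb2 (-0.95, SE 0.31, adjusted p = 0.0626) and Fntb (-1.36, SE 0.39, adjusted p = 0.0505) did not pass. Without saline replicate 2 of 24 h edgeR called 0 genes, with 3163 under an unadjusted p of 0.05, and all but 1 library of each of the 24 h groups were on plate 2 while the 4 h lungs were on plate 1. Cyp1b1 was 3.14 to 8.62 CPM in pine needles flame lungs of 24 h and 3.83 to 19.3 CPM in saline lungs of 24 h, where the 19.3 CPM were those of saline replicate 2.

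**Figure D5:**
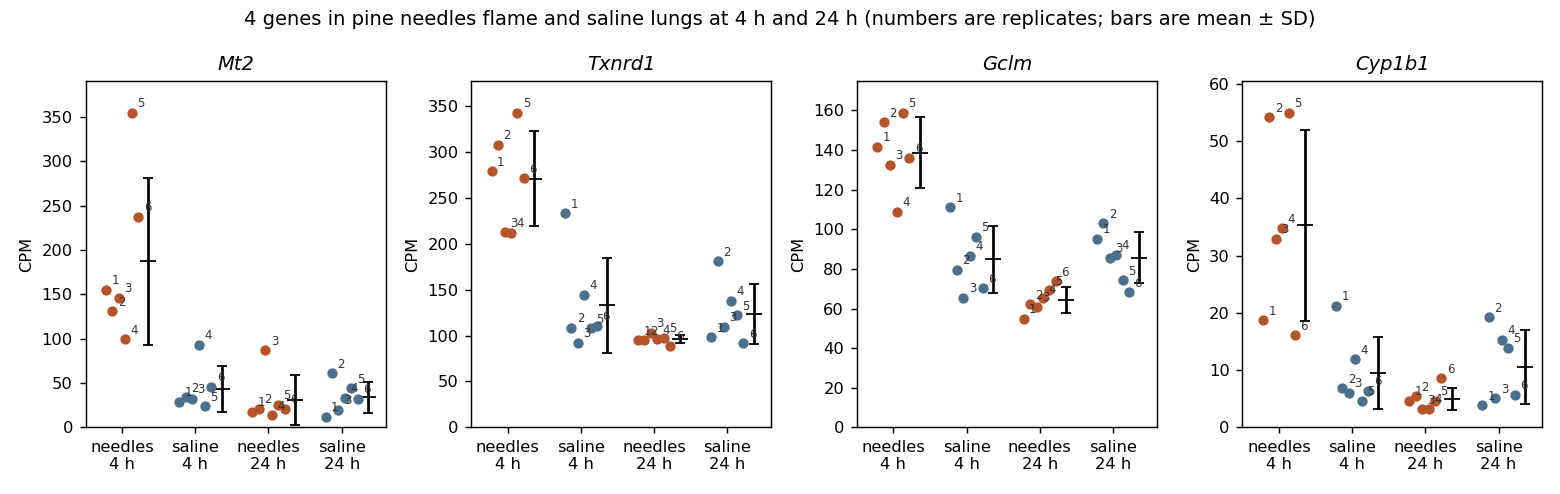
CPM of Mt2, Txnrd1, Gclm and Cyp1b1 in each pine needles flame and saline lung at 4 h (left) and 24 h (right), with replicate numbers and mean ± SD bars. Mt2 averages 187 CPM in pine needles flame lungs of 4 h and 30.995 CPM in those of 24 h, and saline lungs average 43.02 and 33.9 CPM.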

How the data were processed

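RNA of 170 lung and heart libraries was read with gene probes, and the deposited table gives raw counts per probe, per the file headers. Bowtie and DESeq2 are named in the submitters' processing notes, without versions; the labels give more than one library chemistry. A genome build is not given in the sources used here. Counts of the 30146 probes were summed over 21450 gene symbols, of which 6290 had several probes. Totals ran between 4.43 M and 8.05 M counts per library (median 6.59 M), which limits the precision of genes of few CPM.

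Groups follow the labels. Genes were tested with edgeR 4.0.16 (TMM factors, filterByExpr, robust quasi-likelihood test, Benjamini-Hochberg adjustment) in R 4.3.3, in a fit of 140 lungs with group and plate terms and, as an alternative, in the 70 lungs of 4 h; the SE is the log2 change over the square root of F. DESeq2 1.42.0, limma 3.58.1, other scalings and filters, covariates and left-out libraries were tried as well. Single genes also had an exact permutation test on log2(CPM + 1). The procedure was also run on simulated counts, drawn independently for each library. They held no shared axis and no library set apart from its group, so that run cannot speak to these features of the lungs. The edgeR p-values rest on a spread between mice estimated over all lungs of the fit, 140 or 70. Only the permutation p-values rest on the 12 compared lungs alone, and edgeR fitted to those 12 called 0 genes.

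The genes named were Mt2, Txnrd1 and Zranb2, every gene called over all lungs, the 12 with the smallest p in each direction in the 4 h fit above a floor of 5 CPM on average in one of the groups, and members of 35 gene lists. Called genes with the smallest p in each other comparison, the time difference among them, were also named. So were a fixed set of genes and those whose group means followed Mt2, Txnrd1 or Zranb2. Members and lists were chosen with earlier results of these data known. Promoters are from RefSeq (GRCm38.p6); 15 of 18 genes looked up had one. Hearts were not used here.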

Additional observations from a re-analysis of the deposited data

Results flagged for a closer look

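Among 40 groups of 6 values examined, 9 held a lung far from the other 5. Chance flags about 1 in 20 where values are unrelated. Here the same libraries recur over related measures, so 9 of 40 cannot be set against that rate. Pine needles flame replicate 1 stood out for Hmox1 (50.1 CPM), mt-Nd1 (144.8 CPM) and mt-Nd3 (84.1 CPM), and replicate 2 for its mitochondrially encoded share of counts (0.341%). Saline replicate 1 stood out for Txnrd1 (233 CPM), Osgin1 (77.1 CPM) and its number of detected genes (14108), saline replicate 4 for Mt2 (93.3 CPM) and saline replicate 2 for Rhof (7.33 CPM).

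The effect at 24 h minus the effect at 4 h passed the test of that difference for 23 of the named genes. Part of them were named because they had the smallest p in this same test, so their number is no result. Over all 14458 genes 0.0622% were called higher and 0.505% lower. Olfm4 was too low to describe and the other 22 follow. The difference was negative for Cyp1b1 (-2.91), Osgin1 (-2.61), Mt2 (-2.23), Pcsk7 (-2.04), Gadd45g (-2.03), Adm (-1.90), Cox4i1 (-1.47), Srsf2 (-1.43), Txnrd1 (-1.39), U2af1 (-1.28), Ier5 (-1.27), Edc3 (-1.16), Gclm (-1.12), Rab7 (-1.09) and Igfbp7 (-1.09) on the log2 scale. It was positive for Zfp986 (2.94), Cdon (2.00), Chka (1.73), Hnmt (1.31), Stx19 (1.29), Tec (1.22) and Recql (1.02). Without saline replicate 2 of 24 h no gene of the table passed in edgeR (3163 under an unadjusted p of 0.05), against 82 with it and 341 in DESeq2.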

How the results depend on the processing

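No paired analysis was possible because the replicate numbers only name libraries in accession order. The 4 called genes at 4 h became 872 in the 4 h lungs alone, 404 on plate 1, 46 without lungs of under 13000 detected genes, 1212 with detected genes as a covariate (2743 in the 4 h lungs), 13 in DESeq2 (1498 in the 4 h lungs), 8 in limma, 178 with the first axis as a covariate and 0 in the 12 libraries alone (edgeR, 2423 under an unadjusted p of 0.05). Leaving out 1 library gave 1 to 45 genes, and 33 to 3725 in the 4 h lungs. Leaving out pine needles flame replicate 2 and saline replicate 1 gave 9 (1361 in the 4 h lungs), and leaving out replicate 1 of both gave 552 (5272), a pair chosen after seeing the data by its place on an axis along which the groups differ. Neither pair was planned, and both take out saline replicate 1. The 872 genes became 368 with no filter. The 5 genes against other flames became 48 in the 4 h lungs, 37 on plate 1, 24 without lungs of few genes, 2 with DESeq2's size factors, 3 in DESeq2 and 12 with no filter. Against pine flame, 1 gene was called without lungs of few genes and 2 in DESeq2. The 1 gene at 24 h became 1351 without lungs of few genes, 0 with DESeq2's size factors (2475 unadjusted), 7 in DESeq2 and 0 without saline replicate 2. The 82 genes between times became 4582, 297 with no plate term, 0 (4745 unadjusted), 341, 12 with no filter and 0 in those settings. The causes were not tested.

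Directions turned for Adm (-0.0585 and -0.0606 without pine needles flame replicate 5, -0.2306 with the axis, -0.114 by 1 probe), Cxcl1 (-0.0635 and -0.0843 without replicate 6, -0.0342 and -0.0345 without replicate 1 of both groups), Il6 (0.229 and 0.2326 without saline replicate 6, 0.4837 with the axis, 0.3891 by 1 probe), S100a8 (0.078 with the axis) and Saa3 (-0.1401 with detected genes, -1.4022 in limma, -0.5813 and -0.6189 without pine needles flame replicate 1, -0.5752 and -0.5731 without replicate 1 of both). Single probes turned Chka (0.2311), Cxcl2 (-0.3072), Cyp1a1 (-0.0278), Gclc (-0.1892), Luc7l2 (0.3273), Ramp2 (-0.7512 and -0.1718), Recql (0.5067), Scamp1 (-0.2796) and Slc34a2 (-0.0365). DESeq2's size factors moved the median of all genes by -0.1305. Over the left-out libraries the log2 change ran up to 0.3928 (0.365 in the 4 h lungs) for Adm, 0.688 (0.6873) for Cxcl1 and 0.7475 (0.7649) for Saa3, and down to -0.7521 (-0.7903) for Il6. Of the other values, 3257 kept direction and side of the threshold, 763 newly passed and 355 no longer passed.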
